A study of Mus musculus with 9 samples.

Results

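The genes described here are 10 transcriptional targets of the tumour suppressor p53, taken from the deposited table by symbol: Cdkn1a, Mdm2, Ccng1, Zmat3, Eda2r, Phlda3, Bax, Trp53inp1, Sesn2 and Gdf15. All 10 were found among the 22161 rows of the table, and all 10 passed the filter on low values (a mean of at least 10 normalized counts), which left 15740 genes tested. The samples were kidneys of 9 C57BL/6 mice aged 10 weeks. The 3 groups of 3 mice were wild type (WT), Pkd2 knockouts (KO), which carried Pkd2 fl/fl together with Pax8rtTA and TetO-cre, and double knockouts (DKO), which carried Ift88 fl/fl in addition to those 3 alleles. Doxycycline (2 mg/ml) was given to every mouse, wild type included, starting on postnatal day 28 and lasting 2 weeks. The drug turns on cre wherever Pax8rtTA is expressed, which in the kidney is the tubule epithelium, so vessels, stroma and immune cells of the same organ kept the genes. WT, KO or DKO followed by a number denotes 1 mouse.

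p53 is a transcription factor that is held at a low level by the ubiquitin ligase Mdm2 and is released by DNA damage and other stress. It then raises genes that stop the cell cycle, genes that lower the threshold for cell death, and genes of metabolic and secreted stress signals. Mdm2 is itself a target, which closes a feedback loop. Polycystin-2, the product of Pkd2, is a cation channel of the primary cilium, and its loss from tubules gives polycystic kidneys in which tubule cells divide. Ift88 encodes a transport protein without which cilia are not built. The comparison of KO with WT asks what loss of Pkd2 changed, and that of DKO with KO asks what changed when cilia were removed as well.

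Normalized totals were 40454151 to 42874467 per library. Pkd2 was 13768 to 14505 normalized counts in WT, 4723 to 5549 in KO and 3777 to 5181 in DKO mice. Ift88 was 1056 to 1132 in WT, 1086 to 1214 in KO and 691 to 831 in DKO mice, so both targeted genes followed the labels. The kidney tubule markers Umod, Slc12a1 and Calb1, of the distal nephron, were present in every library and fell in KO against WT, by 0.91, 0.87 and 0.82 on the log2 scale (limma adjusted p = 0.0319, 0.00929 and 0.0448). They were the 3 of 11 listed tubule and podocyte markers that passed at 0.05, beside 2.4% of all genes, and the other 8 did not. Of the 11, 8 had lower KO means and 3 (Lrp2, Slc34a1 and Slc5a2) higher ones, by 0.12, 0.03 and 0.11. The Slc12a1 call was lost without WT 2 (adjusted p up to 0.0542), that of Umod on leaving out KO 1, KO 2 or a single WT mouse (up to 0.110). The Calb1 call survived only the removal of DKO 2 and was otherwise lost (up to 0.135). KO 3 stood apart from the other libraries. Erythroid markers summed to 7394 normalized counts there and to 1307 to 2766 in the other 8. Of these Slc4a1 was not raised there, at 1218 beside 1011 to 1837. The globin gene Hbb-bs was at 3506 beside 42.2 to 607. Adipose and adrenal markers together summed to 2786 in KO 3 and to 464 to 1591 in the others. The excess lay mostly in the adipose genes Cfd, Plin1 and Adipoq, at 1679, 484 and 460 in KO 3. Cfd was also 1029 in KO 1. The adrenal genes Cyp11a1, Cyp11b1 and Cyp21a1 were at 0.97, 0.97 and 0 in KO 3, and Star was at 161 beside 101 to 141. Results are therefore also given without KO 3. In whole-kidney RNA, fewer cells of a type and less RNA per cell cannot be told apart.

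p53 binds DNA as a tetramer, usually at a pair of 10-base motifs called half-sites, each bound by 2 molecules. The 250 bases before each annotated start were taken from RefSeq (build GRCm38.p6, which may not be the build used by the authors) and searched for the p53 half-site, a pattern that reads the same on both strands. It occurred in 7.13% of 32851 such windows genome-wide. Of the 10 members 8 had a window, with 10 windows in all, and 4 of these held a half-site. The 4 windows below belong to the best known targets, Cdkn1a and Mdm2, and to the members whose values differed most between genotypes, Eda2r and Phlda3. Capitals mark half-sites.
Cdkn1a, chr17:29090729-29090978, plus strand: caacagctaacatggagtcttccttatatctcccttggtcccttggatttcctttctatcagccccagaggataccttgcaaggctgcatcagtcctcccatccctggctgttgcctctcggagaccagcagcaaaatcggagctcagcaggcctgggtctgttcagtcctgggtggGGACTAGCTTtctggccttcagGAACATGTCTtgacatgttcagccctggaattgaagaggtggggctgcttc
Mdm2, chr10:117710759-117711008, minus strand: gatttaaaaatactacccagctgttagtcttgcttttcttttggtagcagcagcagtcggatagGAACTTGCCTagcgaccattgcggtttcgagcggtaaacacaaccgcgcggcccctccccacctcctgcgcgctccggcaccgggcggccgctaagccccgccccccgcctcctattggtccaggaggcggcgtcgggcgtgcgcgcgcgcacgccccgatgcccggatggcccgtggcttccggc
Eda2r, chrX:97377210-97377459, minus strand: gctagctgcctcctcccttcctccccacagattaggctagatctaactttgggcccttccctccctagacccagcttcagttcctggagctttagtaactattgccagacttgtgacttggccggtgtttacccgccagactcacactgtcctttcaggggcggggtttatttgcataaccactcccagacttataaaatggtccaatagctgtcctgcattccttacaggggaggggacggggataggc
Phlda3, chr1:135765835-135766084, plus strand: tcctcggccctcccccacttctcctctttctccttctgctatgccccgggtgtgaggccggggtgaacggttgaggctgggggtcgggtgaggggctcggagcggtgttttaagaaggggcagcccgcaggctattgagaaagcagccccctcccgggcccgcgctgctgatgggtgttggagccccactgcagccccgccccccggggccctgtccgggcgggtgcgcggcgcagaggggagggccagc

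The Cdkn1a window belongs to the farther upstream of its 2 listed starts, and it holds 2 half-sites no more than 13 bases apart. A pair of full half-sites like this occurred in 0.0639% of all windows (21 of 32851). The window also holds 2 CATG cores 6 bases apart, in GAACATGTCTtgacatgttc, where only the first 10 bases match the half-site pattern in full. Cores of this form (C, 2 bases that are A or T, G) with that spacing occurred in 5.84% of all windows. Which of these p53 binds was not tested. The window of the other Cdkn1a start, chr17:29093519-29093768, held no half-site. Ccng1 had GGGCAAGCCT at chr11:40755462-40755471, and Bax had AGGCAAGCTT at chr7:45467090-45467099, both on the minus strand. No half-site was found in these windows of Eda2r, Phlda3, Sesn2 or Gdf15. A match in these letters is not a measured binding site, and the windows leave out introns and more distant sequence.

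In Pkd2 knockout kidneys 1 of the 10 genes, Eda2r, rose. Phlda3 and Zmat3 had their 3 KO values above the 3 WT values, as did 12.4% of all genes tested, but did not pass the test. The other 7 genes overlapped between the groups, Cdkn1a and Mdm2 among them. In the double knockout no member passed against either KO or WT. Eda2r, Phlda3 and Ccng1 had all 3 DKO values below those of KO, as did 7.78% of all genes tested. Ccng1 was also wholly below WT, as were 9.24%. Calls were made with limma on log2(normalized count + 1) at a Benjamini-Hochberg adjusted p below 0.05 over all 15740 genes. By this rule 2.4% of all genes were called in KO against WT (1.14% higher), 0.394% in DKO against KO and 0.229% in DKO against WT.

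**Figure D1:**
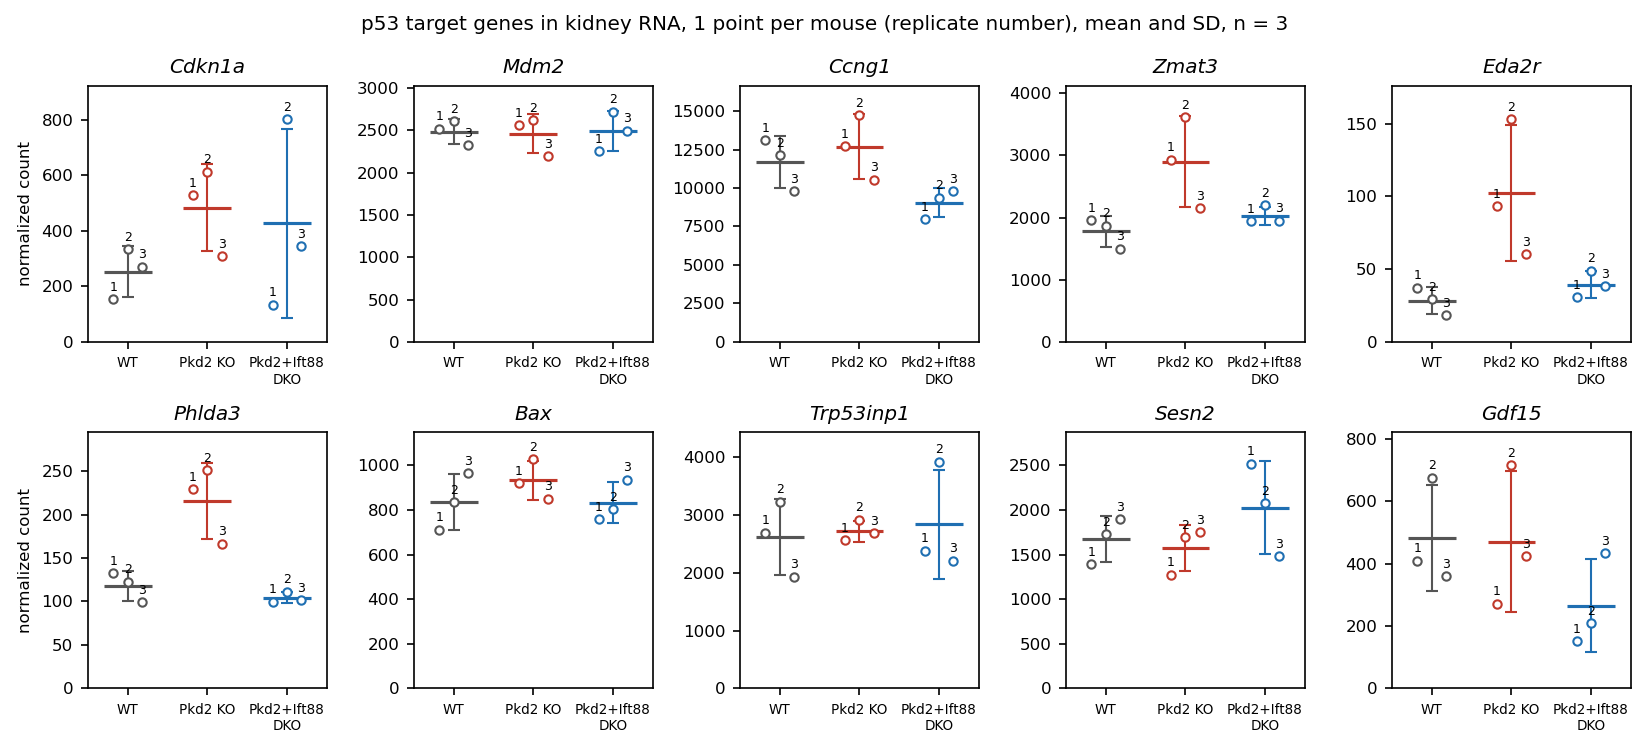
Normalized counts of the 10 p53 target genes in each kidney, with 1 point per mouse labelled by its replicate number, and the mean and SD of each group (n = 3). Each panel has its own vertical axis starting at 0. Eda2r and Phlda3 have all 3 KO mice above all other mice, whereas Mdm2 is level across the groups and Cdkn1a spreads widely within the DKO group.

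Among the genes of cell death, Eda2r encodes a receptor of the tumour necrosis factor receptor superfamily that binds ectodysplasin-A2. It was 37.2, 29.3 and 18.5 normalized counts in WT 1, 2 and 3, and 93.4, 153 and 60.4 in KO 1, 2 and 3. In the double knockout it was 30.5, 48.9 and 38.3. Every KO mouse was above every WT and DKO mouse, and KO 2 was the highest of all 9. The KO mean of 102 ± 47.1 was 3.61-fold the WT mean of 28.3 ± 9.37 (SD, n = 3), a log2 fold change of 1.77 ± 0.38 (SE; limma adjusted p = 0.0464). Against KO, the DKO mean of 39.3 ± 9.24 gave -1.28 ± 0.38 and did not pass (adjusted p = 0.227). Against WT the DKO difference was 0.49, with a 95% interval of -0.36 to 1.34. Eda2r is the lowest member, and its WT 3 value rests on 17 reads.

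The Eda2r call was close to the threshold. It was lost without any one mouse other than KO 3, with an adjusted p of up to 0.149, and passed without KO 3 (0.0310). It held in 7 of 23 alternatives, among them DESeq2 on 7 libraries (0.0228), and was lost in 16, among them edgeR on the same 7 (0.261). Its log2 fold change stayed between 1.43 and 2.16 in all 23. Of the 5 tested genes of ectodysplasin signalling it was the 1 call, beside 2.4% of all genes in KO against WT. The other 4 did not pass in any comparison.

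Phlda3 encodes a pleckstrin homology domain protein that restrains the kinase Akt. It was 133, 123 and 99.1 normalized counts in WT 1, 2 and 3, then 229, 251 and 167 in the KO mice, and 99.7, 111 and 102 in the DKO mice. The 3 KO mice were above the other 6, and the DKO mice lay within the WT range. The KO mean was 1.83-fold the WT mean, a log2 difference of 0.85 ± 0.19 (95% interval 0.43 to 1.27; adjusted p = 0.0514). Between DKO and KO the difference was -1.02 ± 0.19 (adjusted p = 0.0638). Without KO 3, Phlda3 passed in both comparisons, at 1.03 (adjusted p = 0.0276) and -1.20 (0.0309).

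Bax, the pore-forming protein of mitochondrial apoptosis, was 712, 835 and 963 in WT, 921, 1027 and 851 in KO, and 759, 802 and 936 in DKO mice. The groups overlapped, and the KO difference of 0.16 had a 95% interval of -0.13 to 0.46. Trp53inp1, a stress-induced nuclear protein that acts with p53 and in autophagy, was 2691, 3231 and 1931 in WT 1, 2 and 3. It was 2558, 2918 and 2687 in KO and 2381, 3923 and 2209 in DKO mice. The lowest value was in WT 3 and the highest in DKO 2, and the 3 means differed by less than the spread within WT or DKO.

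Of the cell cycle and feedback members, Zmat3 encodes a zinc finger protein that binds RNA. It was 1959, 1871 and 1497 in WT 1, 2 and 3, 2932, 3619 and 2147 in KO 1, 2 and 3, and 1941, 2195 and 1949 in the DKO mice. All KO values were above the WT range, and KO 3 was below DKO 2. The KO difference was 0.68 ± 0.18 (95% interval 0.29 to 1.08; adjusted p = 0.0849), and the DKO difference from KO was -0.49 ± 0.18 (adjusted p = 0.344). Without KO 3, Zmat3 passed against WT at 0.88 (adjusted p = 0.0237), and against DKO its adjusted p was 0.0621.

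Ccng1, which encodes cyclin G1, a partner of protein phosphatase 2A in the Mdm2 loop, was the most abundant member. It was 13109, 12130 and 9802 in WT, 12731, 14748 and 10541 in KO, and 7962, 9362 and 9773 in DKO 1, 2 and 3. KO and WT overlapped, whereas all 3 DKO mice were below all 6 others. That gap was narrow, since DKO 3 and WT 3 differed by less than the spread in any group. The DKO differences of -0.48 ± 0.15 from KO (adjusted p = 0.241) and -0.37 ± 0.15 from WT (adjusted p = 0.375) did not pass.

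Cdkn1a encodes p21, the inhibitor of cyclin-dependent kinases through which p53 arrests the cycle. It was 154, 334 and 270 in WT 1, 2 and 3, 527, 612 and 308 in KO 1, 2 and 3, and 133, 801 and 343 in DKO 1, 2 and 3. KO 1 and 2 were above all WT mice, while KO 3 was below WT 2. The DKO group held both the lowest and the highest of the 9 values, a 6.01-fold range, where KO ranged 1.99-fold and WT 2.17-fold. The KO mean was 1.91-fold the WT mean, but the log2 difference of 0.95 had a 95% interval of -0.36 to 2.25 (adjusted p = 0.421). The interval thus takes in no difference as well as the size seen for Eda2r.

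Mdm2 was 2520, 2609 and 2323 in WT, 2563, 2620 and 2193 in KO, and 2250, 2718 and 2495 in DKO mice. Its differences were -0.02 in KO (95% interval -0.23 to 0.20) and -0.00025 in DKO against WT (-0.22 to 0.22), the narrowest intervals of the 10 genes. The interval for KO lies wholly below that of Eda2r, which runs from 0.92 to 2.62, and that of Phlda3.

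The stress members, Sesn2 and Gdf15, had KO means slightly below their WT means, and neither difference passed. Sesn2 encodes sestrin 2, a leucine sensor upstream of mTORC1 that the factor ATF4 also induces. It was 1389, 1729 and 1895 in WT, 1276, 1693 and 1748 in KO, and 2518, 2076 and 1485 in DKO 1, 2 and 3. DKO 1 and 2 were above all WT and KO mice and DKO 3 was within their range, so the difference of 0.35 from KO did not pass (adjusted p = 0.631). Gdf15 encodes a secreted cytokine of the TGF-beta superfamily that marks cell stress. It was 410, 676 and 360 in WT, 272, 717 and 424 in KO, and 152, 210 and 434 in DKO 1, 2 and 3. DKO 1 and 2 were the lowest of the 9 mice and DKO 3 was not. The DKO mean was 55.0% of WT, a log2 difference of -0.95 (95% interval -1.95 to 0.05; adjusted p = 0.448).

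**Figure D2:**
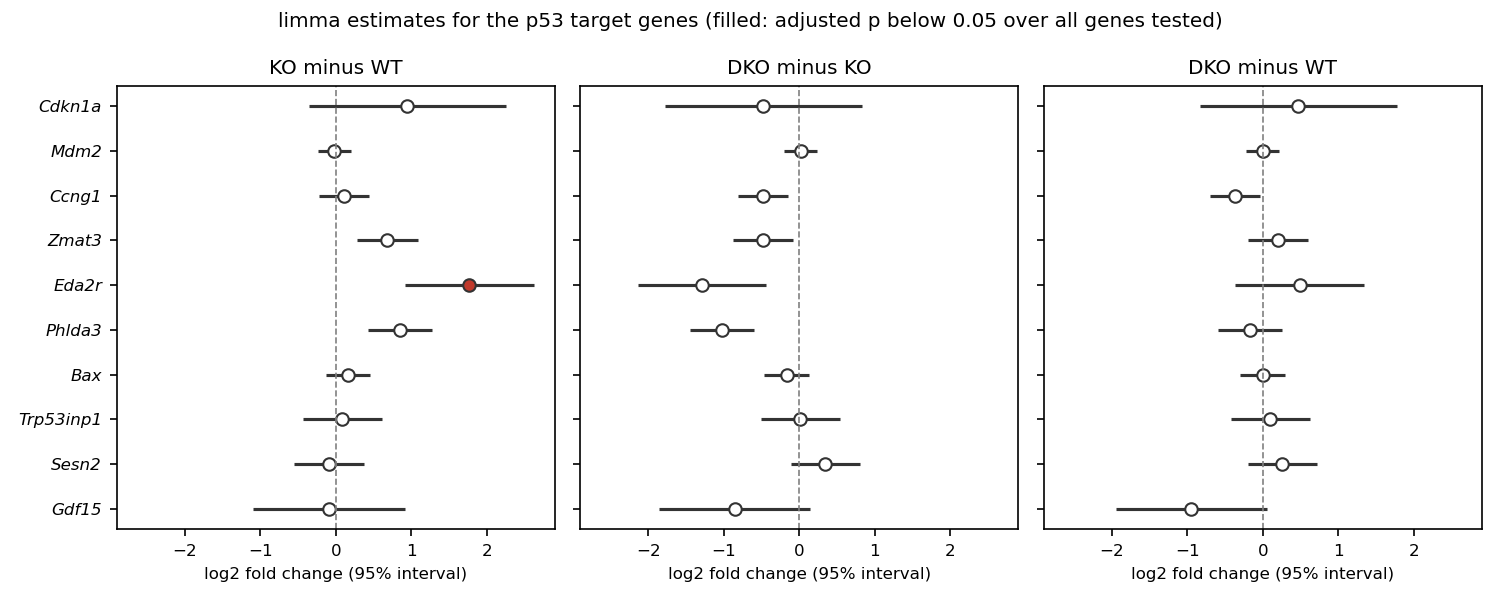
Log2 fold changes with 95% intervals from limma for the 10 genes in the 3 comparisons, on the log2(normalized count + 1) scale. The filled point is Eda2r in KO minus WT, the 1 call; the intervals of Phlda3 and Zmat3 lie above 0 in KO minus WT and below 0 in DKO minus KO.

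Counted over the members, 3 of 10 (Eda2r, Phlda3 and Zmat3) had all KO values above all WT values, where 12.4% of the genes tested did, and none had them below, where 12.8% did. The same 3 members were higher at an unadjusted p under 0.05, as were 9.36% of all genes. In DKO against KO 3 members (Eda2r, Phlda3 and Ccng1) had groups that did not overlap, all lower, beside 7.78% of all genes. In DKO against WT 1 member, Ccng1, was wholly lower, beside 9.24%. Limma called 0 members in DKO against KO, whereas 4 had a lower mean with p under 0.05 before adjustment (6.49% of all genes did), and edgeR and DESeq2 called 0. In DKO against WT it called 0. There 1 member was lower before adjustment, at p under 0.05, beside 5.81% of all genes, and edgeR and DESeq2 called 0. The median log2 fold change of the 10 genes was 0.14 in KO against WT, -0.48 in DKO against KO and 0.05 in DKO against WT, beside 0.0043, 0.0046 and -0.0010 over all genes. The 3 KO libraries are shared by the comparisons with WT and with DKO, so a high KO value enters them with opposite signs. Without KO 3, limma called 3 members higher in KO than WT and 1 lower in DKO than KO, where 2.52% and 0.978% of all genes were called, and 0 in DKO against WT, where 0.292% were.

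Other methods called between 0 and 4 members, and each count is given beside the share of all genes that the method called. Array quality weights gave 3 members in KO against WT, 4 in DKO against KO and 0 in DKO against WT, beside 20.5%, 3.9% and 1.87% of all genes. Without both WT 3 and KO 3 there were 3, 3 and 0, beside 3.28%, 1.96% and 0.705%. DESeq2 on 7 libraries gave 1, 0 and 0, beside 1.88%, 0.966% and 0.705%. There were 0 members in every comparison with edgeR on those libraries (0.0699%, 0.0635% and 0.0635% of all genes), with limma on them (0.0826%, 0.0699% and 0.0699%), and with the replicate number as a block in the fit (1.38%, 0.0953% and 0.127%).

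Single mice ranked alike for several members. Within the KO group KO 2 had the highest value for 9 of the 10 genes and KO 3 the lowest for 7. Within the WT group WT 3 was lowest for 7, and within the DKO group DKO 1 was lowest for 8 and DKO 2 highest for 6. Against the WT mean on the log2 scale, KO 3 was 1.12 higher for Eda2r, 0.50 for Phlda3 and 0.28 for Zmat3, where KO 2 was 2.45, 1.09 and 1.04 higher. In DKO 2, Cdkn1a was 1.73 and Trp53inp1 0.62 above the WT mean, while Phlda3 was -0.07 and Gdf15 -1.14 from it. DKO 2, the mouse with the most Cdkn1a, was thus below all 3 KO mice for Eda2r and Phlda3.

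Levels of different genes were set side by side per kilobase of merged exons in GENCODE M21, whose annotation may differ from the authors'. In WT kidneys Ccng1 led at 3326 ± 484 normalized counts per kilobase. Bax (531 ± 79.7), Mdm2 (489 ± 28.8), Sesn2 (481 ± 74.2) and Trp53inp1 (404 ± 101) followed and overlapped within their SDs. Gdf15 was at 260 ± 91.7 and Zmat3 at 155 ± 21.5. Phlda3 (75.8 ± 11.1) and Cdkn1a (71.0 ± 25.7) were alike within their SDs, and Eda2r was lowest at 4.81 ± 1.59. In the same annotation an unclassified gene overlaps Cdkn1a on the opposite strand and a gene of the same strand overlaps Bax. Neither has a row in the table, and the strand setting of the counting is not given.

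Other genes of the network were read from lists. Of 22 tested genes of the p53 family and its regulators limma called 0 in KO against WT, as did edgeR and DESeq2. Before adjustment (p under 0.05) 2 were higher, beside 9.36% of all genes, and 2 lower, a direction whose share of all genes is not given here. The median of the 22 was -0.0011. Trp53, which encodes p53 itself, was 1055, 1108 and 1085 in WT, 1253, 1183 and 1248 in KO and 1158, 899.8 and 1188 in DKO mice. All KO values were above all WT values, by 0.18 on the log2 scale, and the difference did not pass (95% interval -0.06 to 0.42, adjusted p = 0.398). Mdm4, the partner of Mdm2 in restraining p53, had means of 1772 ± 174, 1830 ± 65.5 and 1931 ± 142 in WT, KO and DKO. p53 acts largely through the stability and modification of its protein, which RNA does not measure.

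Of the 52 tested genes in 3 lists of other p53 targets, limma called 4 in KO against WT, 2 higher and 2 lower, beside 2.4% of all genes. Before adjustment (p under 0.05) 5 were higher, beside 9.36% of all genes, and 6 lower. Limma called 0 in DKO against KO, with 8 lower before adjustment, beside 6.49% of all genes, and 1 higher. It called 0 in DKO against WT, with 8 lower before adjustment, beside 5.81% of all genes, and 3 higher. The shares of all genes for the 6 lower in KO against WT, and for the 1 and 3 higher here, are not given. Those counts therefore cannot be set against all genes. On 7 libraries edgeR called 0 in every comparison. DESeq2 called 1 higher and 2 lower in KO against WT, and 2 lower in each of the others. Of 16 cell death targets Bid, a BH3-only activator of Bax, rose by 0.40 ± 0.07 (adjusted p = 0.0275). It was 1736, 1829 and 2014 in WT and 2435 to 2471 in KO mice, and it was also 2315 to 2497 in the DKO mice. Of 18 cycle arrest and repair targets Gtse1, a microtubule-bound protein of G2 phase that also restrains p53, rose by 1.38 ± 0.22 (adjusted p = 0.0191). It was 24.8 to 29.4 in WT, 54.6 to 86.9 in KO and 27.5 to 29.9 in DKO mice.

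Of 18 metabolic and stress targets Ddit4, an inhibitor of mTORC1 that is also induced by hypoxia and glucocorticoids, fell by 2.64 ± 0.42 (adjusted p = 0.0172), and Ak1, adenylate kinase 1, fell by 0.72 ± 0.13 (adjusted p = 0.0295). Ddit4 was 3130 to 5124 in WT and 525 to 734 in KO mice, and Ak1 843 to 1048 and 550 to 615. In DKO 1, 2 and 3 Ddit4 was 652, 2468 and 923, and Ak1 was 785, 750 and 589. These DKO values were also below all WT values, but did not pass against WT (limma adjusted p = 0.157 and 0.227). The medians of the 3 lists were 0.05, 0.04 and -0.08, close to that of all genes. The calls of Bid, Ddit4 and Ak1 were each lost when KO 1, KO 2, WT 1 or WT 2 was left out, with an adjusted p of up to 0.106, 0.0788 and 0.113. That of Gtse1 was lost when KO 2, WT 1 or WT 2 was left out (up to 0.0890).

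**Figure D3:**
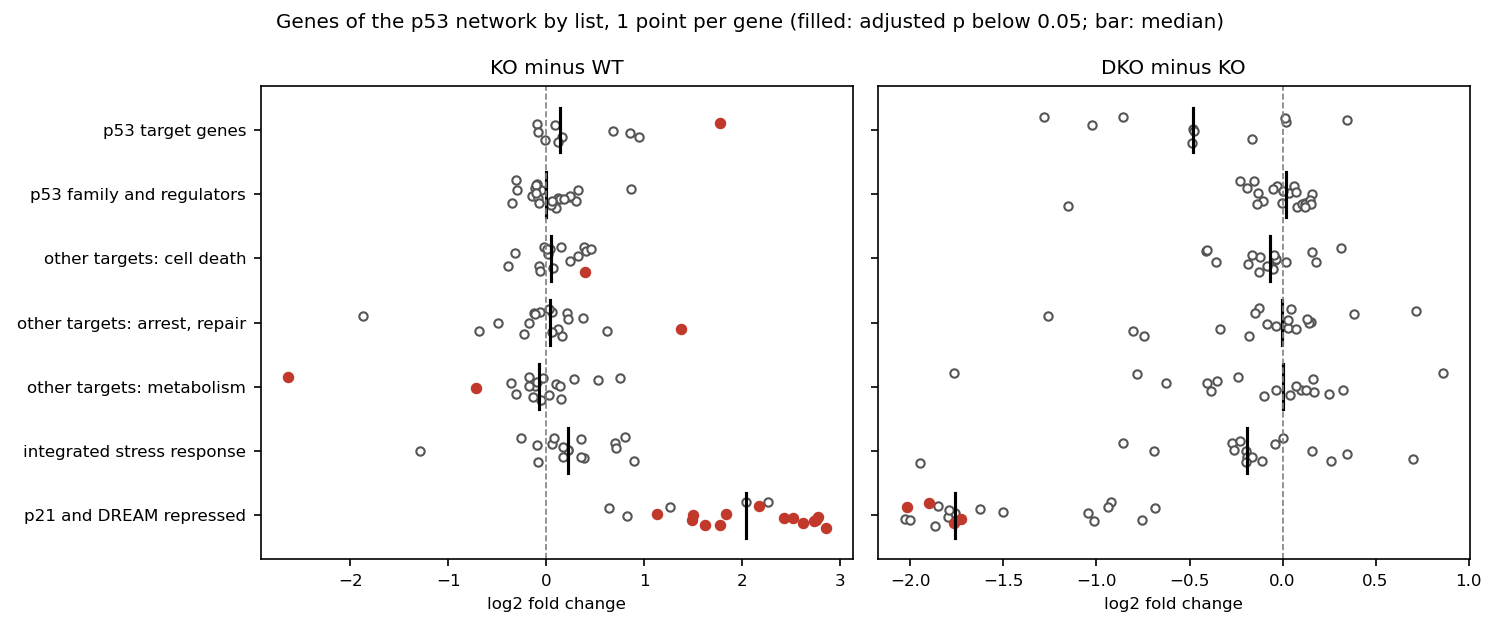
Log2 fold changes of single genes by list, KO minus WT on the left and DKO minus KO on the right, with filled points for adjusted p below 0.05 and a bar at the median. The 10 p53 target genes and the lists of other targets centre near 0 in KO minus WT, while the genes repressed through p21 lie at a median of 2.04.

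p21 is known to halt division by way of the DREAM complex, which silences genes of mitosis. Of 19 tested genes of that kind 14 were higher in KO than WT, 0 lower, and 5 did not pass, with a median of 2.04. Over all genes 1.14% were called higher. Ccnb2, Ccnb1 and Cenpf, mitotic cyclins and a kinetochore protein, rose by 2.77, 2.75 and 2.85, and Mki67, the Ki-67 proliferation antigen, rose by 2.73. In DKO against KO, 4 fell and 15 did not pass, where 0.394% of all genes were called in either direction. Mki67 fell by 2.02, Top2a by 1.90, Cdk1 by 1.77 and Ccnb2 by 1.73. These counts moved with single mice: 10 higher and 3 lower were called without KO 3, 7 higher without WT 1, WT 2 or KO 2 and 8 without KO 1, and 0 lower without KO 1, KO 2 or DKO 2. The count was 1 lower without WT 2 or DKO 1, 2 without WT 1, and 6 without WT 3 or DKO 3. On 7 libraries edgeR called 1 higher and 0 lower, and DESeq2 12 higher and 10 lower. All 20 listed genes summed to 1307 to 1799 normalized counts in WT, 4606, 5556 and 5401 in KO 1, 2 and 3, and 1287 to 2689 in DKO mice. By this sum KO 3 lay between KO 1 and KO 2, while it was the lowest KO mouse for Eda2r, Phlda3, Zmat3 and Cdkn1a. Single genes of the list differed. Mki67 was 969, 1166 and 1177 in KO 1, 2 and 3, and Kif23 was 314, 322 and 259.

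Sesn2 and Gdf15 also belong to the integrated stress response, the programme run by ATF4. Limma called 0 of its 17 tested genes in KO against WT, as did edgeR and DESeq2. Before adjustment (p under 0.05) 3 were higher, beside 9.36% of all genes, and 1 lower, a direction whose share of all genes is not given here. The median of the 17 was 0.22. Among the cyclin-dependent kinase inhibitors of the Cip/Kip and Ink4 families limma called 0 of 6, as did edgeR and DESeq2. There 1 was higher at an unadjusted p under 0.05, beside the same 9.36%. All 6, Cdkn1a among them, had positive differences (median 0.23). Of 14 genes of the Bcl2 family 1, Bid, was called by limma, beside 2.4% of all genes.

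Marker sums of macrophages, fibroblasts, lymphocytes and injured tubules were higher in KO 1 and KO 2 than in KO 3, as was Eda2r. Macrophage markers (10 genes) summed to 5370 to 6134 normalized counts in WT, 8541, 8211 and 6263 in KO 1, 2 and 3, and 4955 to 5917 in DKO mice. Fibroblast markers (9 genes) summed to 8096 to 11806, then 16291, 16953 and 10535, and 6487 to 8093. Lymphocyte markers (10 genes) summed to 457 to 663 in WT, 1075, 1369 and 707 in KO 1, 2 and 3, and 399 to 992 in DKO mice. Most of that sum was 1 gene, Ptprc, at 805, 979 and 547 in KO 1, 2 and 3 and 341 to 482 in WT. Of the 9 lymphocyte genes tested 8 had a higher KO than WT mean on the log2 scale, and 1, Cd8a, a lower mean. Tubular injury genes (12 genes) summed to 35033, 49344 and 25007 in KO 1, 2 and 3 beside 32756 to 34363 in WT and 24657 to 32018 in DKO mice. Spp1 made up most of the injury sum, at 22068, 35080 and 15857 in KO 1, 2 and 3. In KO against WT 10 of the 12 injury genes had higher means on the log2 scale and 2, Havcr1 and Clu, lower means. Of the 10 macrophage genes 9 were higher and 1, Cd14, lower, and of the 9 fibroblast genes 7 were higher and 2 lower. All 12 injury genes had lower means on the log2 scale in DKO than in KO, 6 of them with p under 0.05 before adjustment, beside 6.49% of all genes. No marker of these 4 lists was at 0 in all mice. Of the 40 tested, limma and edgeR called 0 in KO against WT and DESeq2 called 1 (Dcn, higher), beside 1.88% of all genes. Before adjustment (p under 0.05) 13 were higher, beside 9.36% of all genes. There 1 was lower, a direction whose share of all genes is not given here. In DKO against KO 19 of the 40 were lower before adjustment, beside 6.49% of all genes, and 0 higher. There limma called Col1a1 lower, a call lost without WT 1, KO 1, KO 2 or any one DKO mouse (adjusted p up to 0.140), edgeR called 0, and DESeq2 called Cd44, Lyz2, Col1a1 and Col1a2 lower. Dcn, Cd44, Lyz2 and Col1a2 are named after their values were seen. The part of these cells in the levels of Eda2r, Phlda3, Zmat3 and Cdkn1a was not tested.

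The genes whose 9 values lay nearest to those of Eda2r, by the root mean square log2 difference over 9 mice after subtraction of the WT mean, were Anln (0.42), Trim59 (0.44), Kif23 (0.44), Casc5 (0.46) and Kif22 (0.47), out of 12209 ranked. Kif23 is also in the list of genes repressed through p21 and the DREAM complex. Anln, encoding the cytokinesis protein anillin, had means of 68.8 ± 14.5, 231 ± 39.4 and 78.5 ± 24.2 in WT, KO and DKO. Trim59, a ubiquitin ligase gene, had 63.1 ± 20.2, 246 ± 32.7 and 93.6 ± 17.0. The genes nearest to Cdkn1a were Gldc (0.45), Rab30 (0.52), Chsy1 (0.52), Itgb3 (0.53) and Phgdh (0.54). Phgdh, the first enzyme of serine synthesis, had means of 199 ± 61.7, 365 ± 80.1 and 307 ± 76.7 and was not called in any comparison.

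**Figure D4:**
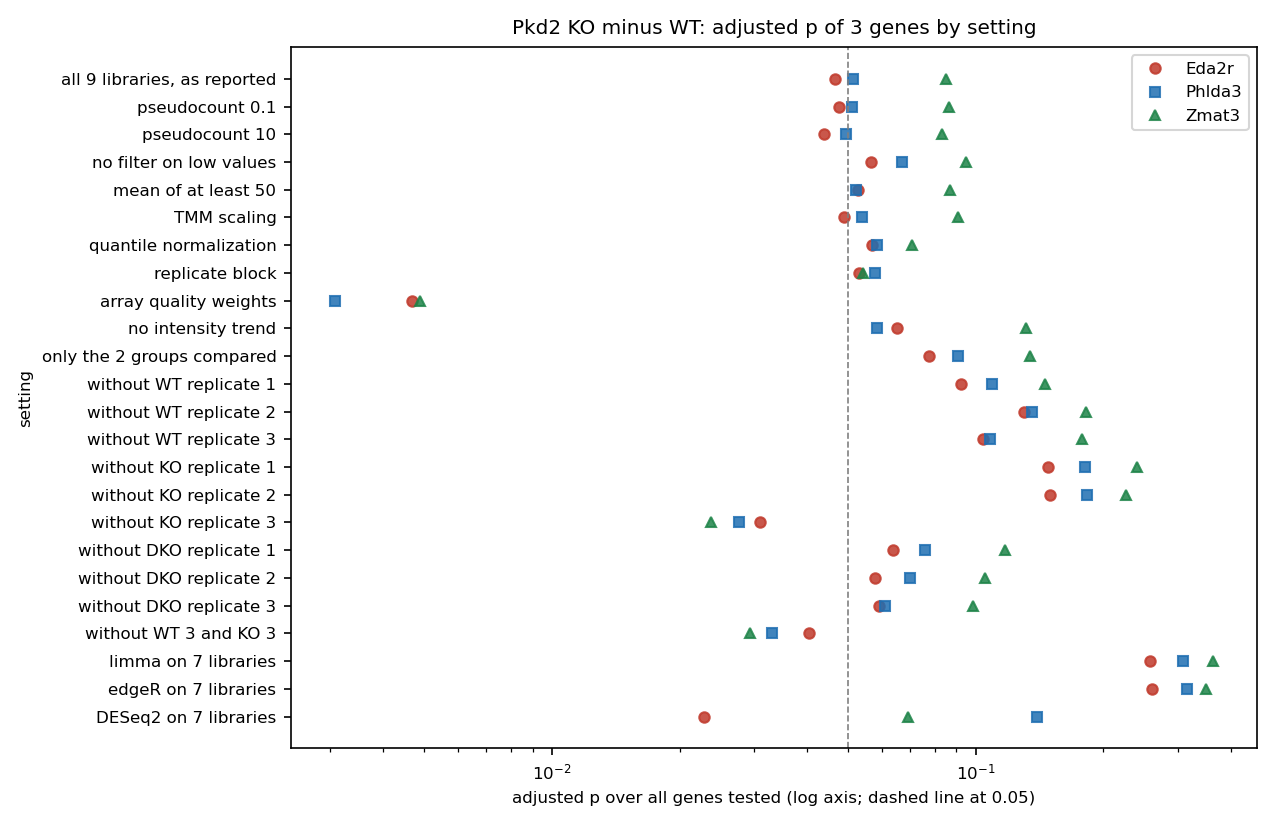
Adjusted p of Eda2r, Phlda3 and Zmat3 in KO minus WT under the reported fit (top) and 23 alternatives, on a log axis with the threshold of 0.05 dashed. All 3 genes lie left of the line with array quality weights, without KO 3, and without WT 3 and KO 3 together; most other points lie close to or right of it.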

How the data were processed

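RNA was sequenced from kidneys of 9 mice, 3 per genotype, as polyA-selected libraries, per the labels' protocols. The authors deposited 1 table of normalized counts, a signal that is gene counts divided by a factor per library. STAR 2.5.0, HTSeq 0.6.1 and DESeq2 are named, per the submitters' processing notes. The sources used here give no genome build, annotation or strand setting. In 7 libraries 100% of the deposited values were whole reads (tolerance 0.05), 37056843 to 47314829 per library. WT 1 and KO 1, where 1 read was worth 1.00 and 0.993, too near 1 for recovered reads to be told from deposited values by the check used, entered no count test, so tests on 7 libraries set 2 WT against 2 KO mice. The labels name no batch. No mouse-name prefix is shared between genotypes (WT 3 and KO 3 also differ from their own groups), so prefix and genotype cannot be told apart in any comparison.

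Genes with a mean of at least 10 were tested with limma 3.58.1 (R 4.3.3; trend, all 9 libraries) on log2(normalized count + 1), with Benjamini-Hochberg adjustment over 15740 genes. The 25 date-named rows, gene symbols altered by a spreadsheet, stayed in the fit. Fold changes on this scale understate low genes. The scripts were tested on simulated data. The 23 alternatives included edgeR 4.0.16 and DESeq2 1.42.0 on 7 libraries. Genes named are the 10 members, Pkd2, Ift88, Trp53, Mdm4, up to 4 called genes per list and comparison, and the 5 genes nearest to Eda2r and to Cdkn1a (mean of at least 50). Other single genes of the marker lists are named after their values were seen. Members and lists were chosen with earlier results of these data known.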

Additional observations from a re-analysis of the deposited data

How the results depend on the processing

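None of the 10 genes reversed a called direction in 23 alternatives. Such a reversal needs a call, and as reported only Eda2r in KO against WT was called. Uncalled differences did change sign. In DKO against WT the reported sign held in 15 of 23 alternatives for Bax and in 16 for Mdm2. For Gdf15 in KO against WT it held in 18. Eda2r, Phlda3 and Zmat3 kept their signs in all 23, in KO against WT and in DKO against KO. In KO against WT the count of members called was 1 as reported. It was 2 with a pseudocount of 10, 3 with array quality weights, and 3 without WT 3 and KO 3 together (3.28% of all genes). It was 0 with no filter on low values, a mean of at least 50, quantile normalization, no intensity trend, only the 2 groups compared, and with limma or edgeR on 7 libraries. Leaving out 1 mouse at a time gave 0 to 3, with 3 only without KO 3. In DKO against KO the count was 0 as reported, 4 with array quality weights, 3 without WT 3 and KO 3, and 0 to 1 leaving out 1 mouse at a time, the 1 being Phlda3 without KO 3. In DKO against WT it was 0 in all, 0 to 0 leaving out 1 mouse. Over all genes, array quality weights called 20.5% in KO against WT, where the reported fit called 2.4%. For the pseudocount, filter, quantile, trend and 2-group settings the share of all genes called is not given here. Under those settings a change in members called cannot be told from a change in calls over all genes. The cause of these shifts was not tested.

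Replicate numbers are shared between the groups, but the labels tie them to no common litter or day. Deviations of same-numbered mice of different groups correlated between -0.142 and 0.215 over 15740 genes. Those of differently numbered mice correlated between -0.230 and 0.173. The ranges largely overlapped, although the highest value was of a same-numbered pair, WT 1 and DKO 1. The numbers were not taken to pair the mice. With the replicate number as a block, 0 members were called in KO against WT (Eda2r adjusted p = 0.0529), 0 in DKO against KO and 0 in DKO against WT. Depth limits Eda2r most, which had 17 to 164 reads in the 7 libraries whose reads could be recovered.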
